A study of Homo sapiens with 6 samples.

Results

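The Rab genes, which encode small GTPases of vesicle traffic, were taken as the rows of the count table whose symbol is RAB followed by a number and at most 1 letter, so that interacting proteins, antisense genes and pseudogenes were left out. This rule took 61 of the 26524 genes in the table. The counts come from 6 libraries of polyadenylated RNA from SCC25, an established line of tongue squamous carcinoma cells. In 3 libraries LIS1 was lowered with a short hairpin (shLIS1), and 3 were controls that the labels call NC, all labelled as 1 batch. The labels call the hairpin samples a knockdown, and the design text calls them a knockout. The labels do not say whether the numbered hairpin samples carried 1 hairpin or several, whether control cells carried a hairpin of another sequence, or whether the 3 samples of a group were separate cultures, so p-values measure only the spread between these samples. Levels are given as CPM, counts per library scaled to a common size with TMM normalization, and "called" means an edgeR quasi-likelihood adjusted p below 0.05 over all 14964 genes that passed the filter on low counts.

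Rab proteins are small GTPases that mark the membranes of the secretory and endocytic pathways. Each Rab cycles between a GDP-bound form held in the cytosol and a GTP-bound form on a membrane, where it recruits effectors that move, tether and fuse vesicles. Several active Rabs bind adaptors of the minus-end motor dynein, and LIS1, the protein encoded by PAFAH1B1, is a regulator of dynein. In epithelial cells Rabs direct the recycling of adhesion and growth factor receptors, the polarised delivery of membrane and the release of granules.

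Total counts were 17674881 to 22790599 in shLIS1 libraries and 15661916 to 20549728 in control libraries. PAFAH1B1 itself stood at 111, 109 and 113 CPM in shLIS1 libraries 1 to 3, against 157, 165 and 154 CPM in control libraries 1 to 3, which left 69.9% of the control level (edgeR adjusted p = 6.5e-08). All 8 squamous epithelial markers checked were expressed, with a summed level of 12330 to 13320 CPM in shLIS1 libraries and 13430 to 13620 CPM in control libraries. Of 6 fibroblast markers 4 passed the filter, and all 6 summed to 13.3 to 15.8 CPM in shLIS1 and 17.1 to 21.9 CPM in control libraries. Of 3 endothelial markers 2 passed, and all 3 summed to 7.15 to 8.54 CPM in shLIS1 and 12.8 to 17.1 CPM in control libraries. Of 3 neuronal markers 1 passed, and all 3 summed to 1.39 to 2.04 CPM in shLIS1 and 2.05 to 2.26 CPM in control libraries. No leukocyte marker passed, and those with a row summed to 0.186 to 0.303 CPM in shLIS1 and 0.0497 to 0.196 CPM in control libraries. Their part in the Rab results was not tested, and in bulk RNA fewer cells of a type and less RNA per cell cannot be told apart.

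Of the 61 Rab genes 53 passed the filter on low counts. Among these 4 rose, 17 fell and 32 were not called. The share that rose was 7.55%, where 23.5% of all tested genes rose, and the share that fell was 32.1%, where 24.9% of all tested genes fell. The median log2 fold change was -0.16 over the 53 Rab genes and -0.01 over all tested genes, and without control library 1 it was -0.09 over the Rab genes. Summed over the 61 genes, Rab transcripts amounted to 3121, 3181 and 3185 CPM in shLIS1 libraries 1 to 3 and 3338, 3392 and 3368 CPM in control libraries 1 to 3, so the summed level was lower in every shLIS1 library and averaged 94.0% of control. Most changes were small, with a median absolute log2 fold change of 0.24, near the 0.27 of all tested genes. RAB26 alone among the 53 changed at least 2-fold, where 753 of all 14964 tested genes did.

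Fold changes in these libraries ran with the base composition of the transcripts. Across the 53 Rab genes the Spearman correlation between GC content and log2 fold change was -0.709, a description over genes that share the same 6 libraries. For this reason the called changes are also given with a length and GC offset, a correction that removes from every library the smooth trend of counts over transcript length and GC content. With it PAFAH1B1 had a log2 fold change of -0.81, against -0.52 without it. The correlation was then 0.253, 1 Rab gene was higher and 26 lower. Those were 1.89% and 49.1% of the 53, where 17.7% and 24.0% of 14491 genes with known length and GC content were higher and lower. The median log2 fold change was then -0.20 over the Rab genes and -0.03 over all genes. In both fits more Rab genes fell than rose, but which Rab genes were called differed: 11 falls were called in both, 5 falls and all 4 rises were lost, 1 fall became a rise, and 15 Rab genes were called lower with the offset alone. Those 15 had GC contents from 36.2% (RAB8B) to 43.9% (RAB31), all below the median of 46.5% for tested Rab genes. The sign of the fold change differed between the fits in 15 of the 53 Rab genes, of which 10 were called lower and 1 higher with the offset.

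**Figure D1:**
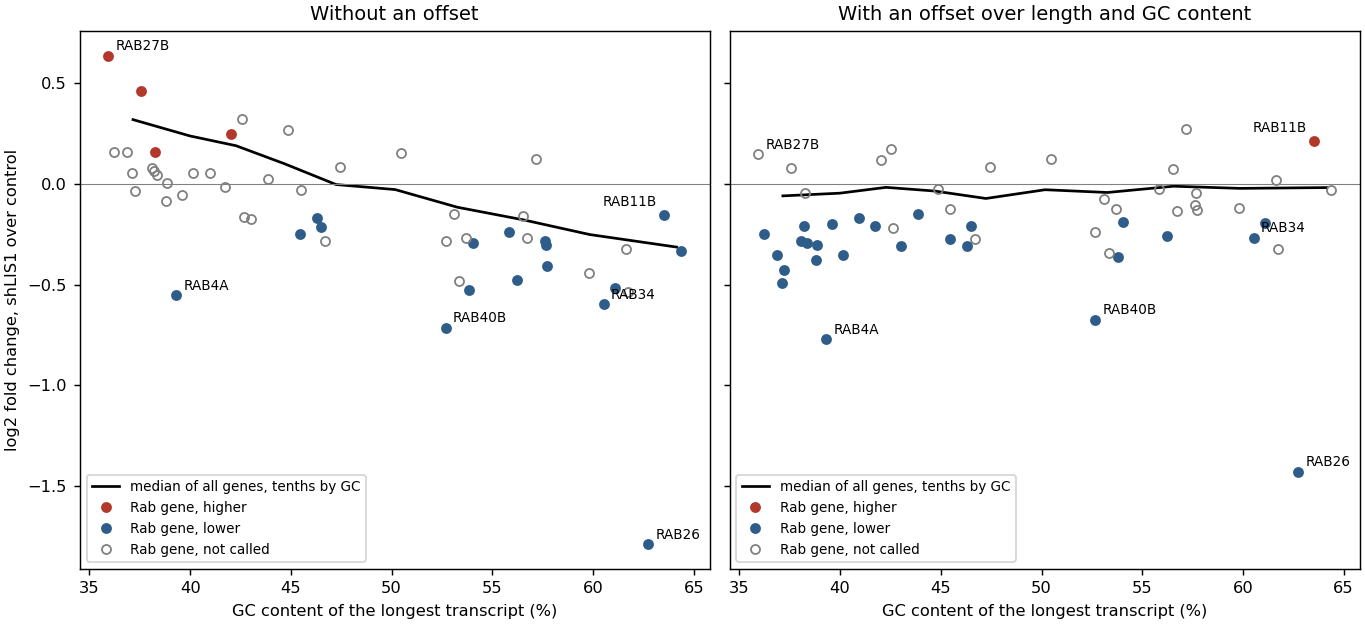
Log2 fold change (shLIS1 over control) of the 53 tested Rab genes against the GC content of their longest transcript in percent, uncorrected (left) and with the length and GC offset (right); points are genes coloured by call, and the black line joins the medians of all genes in 10 GC bins. Without the offset the line runs from 0.32 in the bin lowest in GC to -0.31 in the highest and the 4 called rises lie at the left; with it the line stays between -0.07 and -0.01 and 26 Rab genes are lower.

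The promoters of 3 genes called without the offset are shown because their printed windows meet no annotated exon. With the offset RAB27B (0.15) and RAB40C (-0.03) were not called. These promoters set the largest rise without the offset, RAB27B, beside falls of RAB25 and RAB40C. Each is the 150 bases before the RefSeq start in build GRCh38.p14, 5′ to 3′ on the plus strand, with capitals marking the motifs searched for. RAB27B lies at chr18:54717707-54717856, RAB25 at chr1:156061010-156061159 and RAB40C at chr16:589207-589356.
RAB27B: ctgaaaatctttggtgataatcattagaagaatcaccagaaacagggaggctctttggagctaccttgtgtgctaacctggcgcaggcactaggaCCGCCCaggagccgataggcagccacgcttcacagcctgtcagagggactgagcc
RAB25: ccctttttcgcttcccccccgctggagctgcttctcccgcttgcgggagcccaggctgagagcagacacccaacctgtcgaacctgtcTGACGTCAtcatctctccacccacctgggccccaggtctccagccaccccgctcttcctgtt
RAB40C: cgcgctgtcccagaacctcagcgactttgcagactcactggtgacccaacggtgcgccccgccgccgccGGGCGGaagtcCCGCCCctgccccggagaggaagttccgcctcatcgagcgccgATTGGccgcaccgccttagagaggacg

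The capitals mark a GC box in RAB27B, the core of a cAMP response element in RAB25, and 2 GC boxes and a CCAAT box in RAB40C. GC content of the window was 54.0% in RAB27B, 64.0% in RAB25 and 70.0% in RAB40C. Over the 250 bases before the start, read on both strands, the GC box GGGCGG was found in 38 of 48 Rab promoters with an entry (79.2%), where 42.3% of all 27305 promoters held it. Rab promoters were the entries nearest the gene start and the others the first entry of each gene, expressed or not. The sets are thus not matched. Rises and falls are here the calls without the offset, and all 4 rises were lost with it. The GC box was present in all 3 promoters of called rises, in 10 of 13 of called falls and in 24 of 28 of genes not called. The CCAAT box CCAAT was found in none of the 3, 6 of 13 and 5 of 28 of these promoters, and in 33.0% of all promoters. The E-box CACGTG was found in 5 of the 48 Rab promoters (10.4%) and in 6.49% of all promoters, and the AP-1 site TGANTCA in 2 (4.17%) and in 6.60%. The cAMP response element core TGACGTCA was found in RAB25 alone (2.08%) and in 1.77% of all promoters, and the TATA box TATAAA in 4 (8.33%) and in 11.1%. Median GC content of these 250 bases was 64.8% in Rab promoters and 58.0% in all promoters.

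Levels are compared between genes per kilobase of the longest transcript. RAB7A, the Rab of late endosomes and lysosomes that recruits dynein through its effector RILP, was the most abundant, with 147 CPM per kilobase in shLIS1 and 139 in control cells. Its levels of 318, 338 and 334 CPM in shLIS1 libraries and 309, 313 and 314 CPM in control libraries did not overlap, but it was not called (log2 fold change 0.08, adjusted p = 0.208 by edgeR, SE 0.05, and 0.08 with the offset). RAB1B and RAB1A followed with 76.7 and 87.6 CPM per kilobase in shLIS1 and 110 and 78.4 in control cells. RAB10, which acts in exocytosis to the basolateral membrane, had 75.8 CPM per kilobase in shLIS1 and 73.0 in control cells, with 268, 266 and 270 CPM in shLIS1 libraries and 256, 259 and 259 CPM in control libraries. RAB10 was not called without the offset (log2 fold change 0.05, edgeR adjusted p = 0.395) and was called lower with it (-0.17, edgeR adjusted p = 0.00603). RAB38 had 62.6 CPM per kilobase in shLIS1 and 72.7 in control cells, and RAB6A, a Golgi Rab that recruits dynein through BICD2, had 65.5 in shLIS1 and 66.2 in control cells. Among RAB10, RAB38 and RAB6A the order differed between groups, with RAB38 below RAB6A in shLIS1 and above it in control cells.

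**Figure D2:**
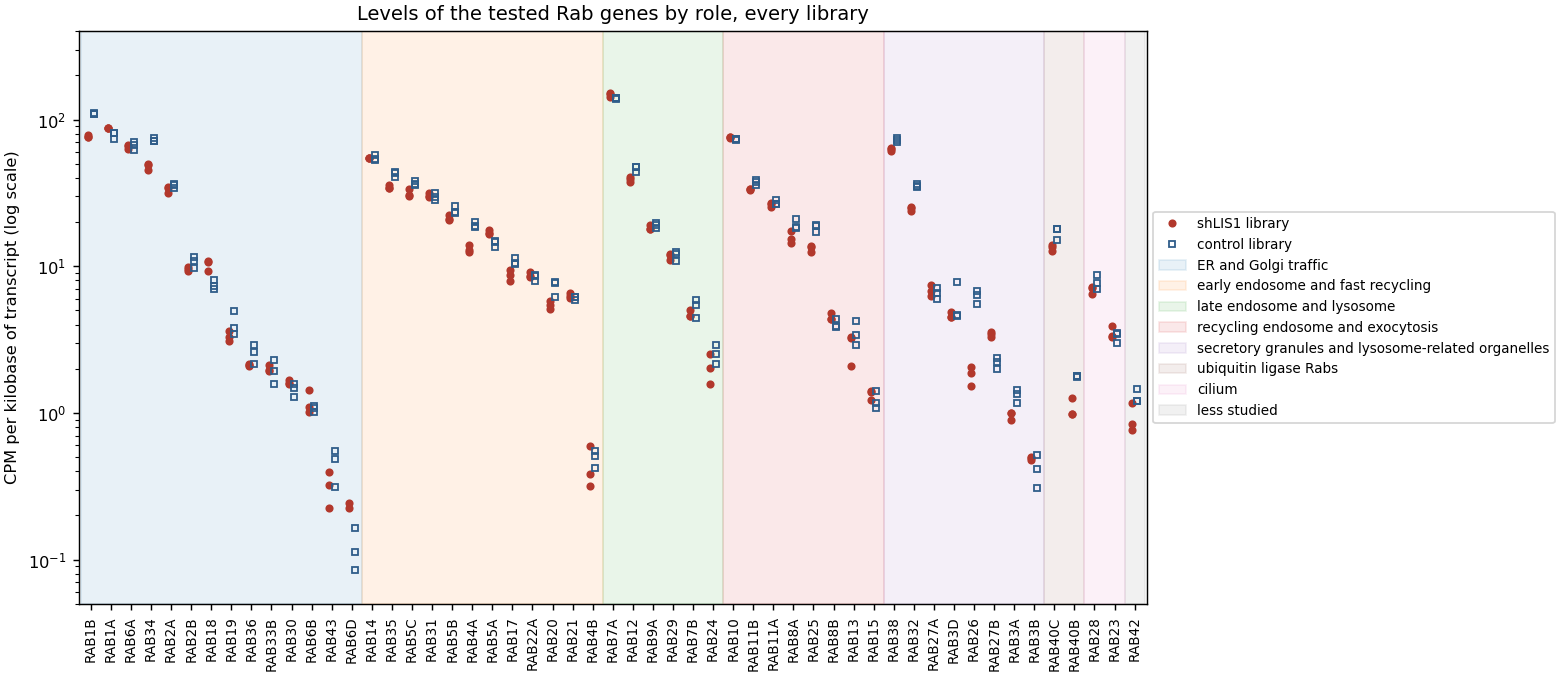
Level of the 53 tested Rab genes in CPM per kilobase of transcript (log scale), grouped by role; filled circles are the 3 shLIS1 libraries and open squares the 3 control libraries. RAB7A stands highest, with 147 CPM per kilobase in shLIS1 and 139 in control cells, and the shLIS1 library with no RAB6D count is not drawn.

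Rabs of the ER and Golgi held 17 members, of which 14 were tested, 2 rose and 2 fell, or 14.3% each. Over all tested genes 23.5% rose and 24.9% fell. The paralogs RAB1A and RAB1B, which drive transport from the ER to the Golgi, moved in opposite directions. RAB1B (ENSG00000174903, chromosome 11, 66268590 to 66277492, plus strand, build hg38) had 158, 152 and 152 CPM in shLIS1 libraries 1 to 3, against 218, 220 and 222 CPM in control libraries 1 to 3. No shLIS1 library reached the lowest control library, and the log2 fold change was -0.52 (adjusted p = 5.4e-08 by edgeR, SE 0.05), with -0.19 under the length and GC offset. RAB1A had 214, 215 and 214 CPM in shLIS1 libraries and 181, 198 and 197 CPM in control libraries, a log2 fold change of 0.16 (adjusted p = 0.0176 by edgeR, SE 0.05). That rise was lost with the offset (-0.05), with upper quartile scaling, without control library 1 and without shLIS1 library 2. RAB1B overlaps an unnamed gene on the other strand over 7661 bases, and RAB1A overlaps CEP68 on the other strand over 16309 bases. Whether reads were counted by strand is not known.

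RAB34, which takes part in the positioning of lysosomes and in the formation of cilia, fell. It had 88.0, 86.0 and 79.9 CPM in shLIS1 libraries 1 to 3, against 127, 125 and 131 CPM in control libraries 1 to 3. The groups were well apart, with a log2 fold change of -0.60 (adjusted p = 2.2e-08 by edgeR, SE 0.05) and -0.27 with the offset. RAB18, found on the ER and on lipid droplets, had 46.1, 52.4 and 53.4 CPM in shLIS1 libraries and 36.1, 39.9 and 34.6 CPM in control libraries. Its log2 fold change was 0.46 (adjusted p = 5.5e-05 by edgeR, SE 0.08), and with the offset 0.08 was left (edgeR adjusted p = 0.373). The other 10 tested members of this role were not called without the offset, and 5 of them were lower with it: RAB2A, RAB2B, RAB30, RAB33B and RAB6A, with offset log2 fold changes of -0.38, -0.31, -0.36, -0.29 and -0.21. With the offset 0 members of this role were higher and 7 lower, or 0.0% and 50.0% of the 14 tested. Of all genes 17.7% were higher and 24.0% lower with it.

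Rabs of the early endosome and fast recycling were 12, all tested, of which 1 rose and 6 fell, or 8.33% and 50.0%, where 23.5% and 24.9% of all tested genes rose and fell. With the offset 6 were lower, or 50.0%, where 24.0% of all genes were lower. Of those 6, RAB4A and RAB5B had also fallen without it. RAB4A (ENSG00000168118, chromosome 1, 229271062 to 229305894, plus strand), which returns receptors from early endosomes straight to the surface, had 36.9, 38.1 and 41.1 CPM in shLIS1 libraries 1 to 3, against 59.3, 56.1 and 54.9 CPM in control libraries 1 to 3. All shLIS1 libraries were below all controls, and the log2 fold change was -0.55 (adjusted p = 1.5e-06 by edgeR, SE 0.07). RAB4A has 39.3% GC, which is below the median of 46.5% for tested Rab genes, and with the offset its log2 fold change was -0.77. Its close relative RAB4B was near the filter, with 8, 8 and 16 counts in shLIS1 libraries and 10, 12 and 10 counts in control libraries, and was not called.

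The 3 RAB5 genes encode the Rabs that drive fusion of early endosomes. RAB5A had 44.5, 42.7 and 41.7 CPM in shLIS1 libraries and 37.0, 37.6 and 34.4 CPM in control libraries, a rise with a log2 fold change of 0.24 (adjusted p = 0.00739 by edgeR, SE 0.07) that was not called with the offset (0.12). RAB5C had 58.3, 63.8 and 57.6 CPM in shLIS1 libraries and 69.7, 68.8 and 73.1 CPM in control libraries, a fall with a log2 fold change of -0.24 (adjusted p = 0.00361 by edgeR, SE 0.06) of which -0.03 was left with the offset. RAB5B had 111, 113 and 119 CPM in shLIS1 libraries and 138, 123 and 126 CPM in control libraries. In RAB5B the groups lay close together, and the fall of -0.17 (adjusted p = 0.0151 by edgeR, SE 0.06) was lost without shLIS1 library 1, without shLIS1 library 2 and when all genes were kept, while it was -0.31 with the offset.

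The remaining falls of this role were in RAB35, RAB20 and RAB17, and none of these was called with the offset. RAB35, which recycles cadherins and receptors and acts in the last step of cell division, had 106, 101 and 101 CPM in shLIS1 libraries and 129, 120 and 127 CPM in control libraries (log2 fold change -0.28, adjusted p = 1.3e-04 by edgeR, SE 0.05, and -0.10 with the offset). RAB20, a Rab of phagosomes and endosomes, had 7.75, 8.26 and 8.80 CPM in shLIS1 libraries and 9.43, 11.8 and 11.6 CPM in control libraries, with a log2 fold change of -0.41 and -0.13 with the offset. RAB17, an epithelial Rab of transport across polarised cells, had 15.6, 17.2 and 18.6 CPM in shLIS1 libraries and 20.4, 22.2 and 20.8 CPM in control libraries, with a log2 fold change of -0.30 that was lost without shLIS1 library 1 and was -0.04 with the offset. RAB14, RAB21, RAB22A and RAB31 had log2 fold changes between 0.00 and 0.05 without the offset and were called lower with it, at -0.31, -0.49, -0.36 and -0.15.

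**Figure D3:**
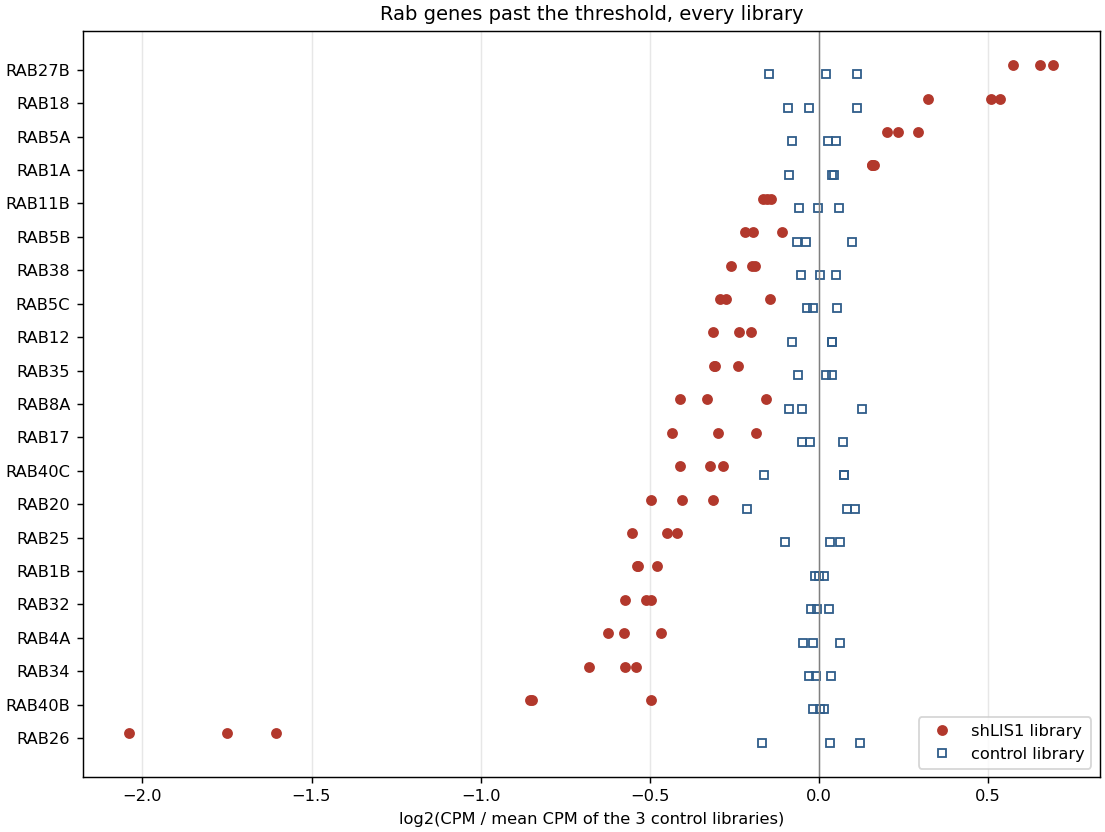
Log2 of the CPM of each library over the mean of the 3 control libraries for the 21 Rab genes called without the offset; filled circles are shLIS1 libraries and open squares control libraries. In all 21 genes the groups do not overlap, and the shLIS1 libraries of RAB26, at 2.55 to 3.45 CPM, lie farthest from their controls, at 9.33 to 11.4 CPM.

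Of the 8 Rabs of the recycling endosome and exocytosis, all tested, 3 fell and 5 were not called. The falls were 37.5%, where 24.9% of all tested genes fell. With the offset 1 was higher and 5 were lower, or 12.5% and 62.5%, where 17.7% and 24.0% of all genes were. RAB25, an epithelial relative of RAB11 that recycles integrins, had 14.9, 15.2 and 13.9 CPM in shLIS1 libraries 1 to 3, against 19.0, 20.8 and 21.3 CPM in control libraries 1 to 3. The fall of RAB25 was -0.48 on the log2 scale (adjusted p = 1.5e-04 by edgeR, SE 0.09) and -0.26 with the offset. RAB8A, which carries vesicles to the plasma membrane and the cilium, had 48.8, 43.2 and 40.9 CPM in shLIS1 libraries and 52.5, 51.2 and 59.4 CPM in control libraries (log2 fold change -0.30, edgeR adjusted p = 0.00353, and -0.19 with the offset). RAB11B, a Rab of the recycling endosome, had 59.2, 58.3 and 58.8 CPM in shLIS1 libraries and 62.7, 65.3 and 68.1 CPM in control libraries. Its log2 fold change was -0.16 (adjusted p = 0.0411 by edgeR, SE 0.06) without the offset and 0.21 (edgeR adjusted p = 0.00456) with it, so the direction of RAB11B turned with the correction, and the call was also lost with RLE scaling, with all genes kept, with DESeq2 and without any library other than control library 1. RAB11A, its paralog that carries cargo with dynein through RAB11FIP3, was not called without the offset (-0.04) and was lower with it (-0.43, edgeR adjusted p = 9.7e-08).

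Of 6 tested Rabs of the late endosome and lysosome 1 fell, or 16.7%, where 24.9% of all tested genes fell. The Rab that fell was RAB12, which sends transferrin receptors to lysosomes. It had 80.2, 84.5 and 86.7 CPM in shLIS1 libraries and 94.2, 102 and 102 CPM in control libraries. The groups of RAB12 did not overlap, with a log2 fold change of -0.25 (adjusted p = 0.00104 by edgeR, SE 0.06) and -0.28 with the offset. RAB9A, which returns mannose 6-phosphate receptors to the Golgi, had a log2 fold change of -0.06 and was called lower with the offset alone (-0.20, edgeR adjusted p = 0.0211). RAB7B, RAB24 and RAB29 were not called in either fit.

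Of 8 tested Rabs of secretory granules and lysosome-related organelles 1 rose and 3 fell, or 12.5% and 37.5%. Among all tested genes 23.5% rose and 24.9% fell. This role held the largest fall without the offset, RAB26, and the largest rise, RAB27B. RAB26 (ENSG00000167964, chromosome 16, 2140803 to 2154165, plus strand), which takes part in the maturation of secretory granules, had 2.55, 3.45 and 3.12 CPM in shLIS1 libraries 1 to 3, from 55, 61 and 72 counts, against 11.4, 10.7 and 9.33 CPM in control libraries 1 to 3, from 178, 216 and 190 counts. The highest shLIS1 library stayed far below the lowest control library, with means of 3.04 ± 0.454 CPM in shLIS1 and 10.49 ± 1.07 CPM in control cells (SD, n = 3 each, log2 fold change -1.79, adjusted p = 6.4e-09 by edgeR, SE 0.15, and -1.43 with the offset). RAB27B (ENSG00000041353, chromosome 18, 54717860 to 54895516, plus strand), which docks secretory vesicles and exosome-bearing endosomes at the plasma membrane, had 26.0, 25.2 and 23.9 CPM in shLIS1 libraries, against 14.5, 17.4 and 16.3 CPM in control libraries. Every shLIS1 library lay above every control library, and RAB27B was 1.55-fold higher (log2 fold change 0.63, adjusted p = 4.6e-06 by edgeR, SE 0.09), and with the offset 0.15 was left and the call was lost (edgeR adjusted p = 0.148). RAB27B overlaps an unnamed gene on the other strand over 9651 bases. At 35.9% its GC content was the lowest of the tested Rab genes. Its paralog RAB27A was not called without the offset (0.06) and was called lower with it (-0.21, edgeR adjusted p = 0.0424).

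RAB32 and RAB38, paralogs that deliver enzymes to melanosomes and related organelles, fell together. RAB32 had 29.01, 30.6 and 30.3 CPM in shLIS1 libraries 1 to 3, against 42.5, 42.9 and 44.0 CPM in control libraries 1 to 3, and RAB38 had 93.4, 89.0 and 92.8 CPM in shLIS1 libraries, against 107, 110 and 103 CPM in control libraries. The log2 fold change was -0.53 for RAB32 (adjusted p = 3.2e-06 by edgeR, SE 0.07) and -0.22 for RAB38 (adjusted p = 0.00226 by edgeR, SE 0.05), and with the offset the values were -0.36 and -0.21. RAB3A, RAB3B and RAB3D, Rabs of regulated exocytosis, were not called in either fit. RAB3D was spread out in the control group, with 20.9, 19.2 and 19.2 CPM in shLIS1 libraries and 33.6, 19.6 and 19.7 CPM in control libraries, where control library 1 stood apart.

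RAB40B and RAB40C carry a SOCS box and act in Cullin-RING ubiquitin ligases, and both fell. RAB40B had 3.81, 3.79 and 4.85 CPM in shLIS1 libraries 1 to 3, against 6.86, 6.76 and 6.92 CPM in control libraries 1 to 3, a log2 fold change of -0.71 (adjusted p = 4.0e-04 by edgeR, SE 0.15) and -0.67 with the offset. RAB40C had 36.8, 34.6 and 37.8 CPM in shLIS1 libraries and 48.4, 41.1 and 48.4 CPM in control libraries, a log2 fold change of -0.33 (adjusted p = 0.00125 by edgeR, SE 0.08) that was -0.03 with the offset. RAB40C is the tested Rab gene highest in GC content, at 64.4%. The ciliary Rabs RAB23 and RAB28 were not called without the offset (0.08 and -0.16), and RAB23 was lower with it (-0.28).

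The 8 Rab genes that did not pass the filter never exceeded 19 counts in a library. RAB40A had 19, 7 and 8 counts in shLIS1 libraries 1 to 3 and 3, 5 and 4 counts in control libraries 1 to 3, and RAB39B had 3, 3 and 1 counts in shLIS1 libraries and 7, 11 and 9 counts in control libraries. These values do not overlap between groups, but both genes were tested only in the alternative that kept all genes. Their results there are not given here. RAB6C, a near-identical retrocopy of RAB6A, and RAB37 had 7 counts or fewer, and RAB9B, RAB33A, RAB41 and RAB44 had 3 or fewer. RAB6D, also close in sequence to RAB6A, passed the filter with 0, 12 and 17 counts in shLIS1 libraries and 4, 10 and 7 counts in control libraries and was not called. Reads of RAB6A, RAB6C and RAB6D could have been split between them.

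Groups of libraries did not overlap in 28 of the 53 tested Rab genes (52.8%), where they did not overlap in 56.1% of all tested genes, so this share was near the background. Of the 28, 20 were lower and 8 higher in shLIS1. In 7 of them, RAB3A, RAB7A, RAB8B, RAB10, RAB30, RAB36 and RAB42, no difference was called without the offset. With it RAB8B (-0.25), RAB10 (-0.17) and RAB30 (-0.36) were called lower, although their uncorrected shLIS1 levels lay above control. By role, the summed levels did not overlap for ER and Golgi Rabs (928 ± 13.6 CPM in shLIS1 and 1015 ± 29.8 CPM in control cells, SD, n = 3 each), early endosome Rabs (908 ± 9.37 in shLIS1 and 965 ± 13.7 in control cells) or granule Rabs (201 ± 3.55 in shLIS1 and 231 ± 10.04 in control cells). Nor did they overlap for recycling and exocytosis Rabs (547 ± 3.19 in shLIS1 and 561 ± 8.95 in control cells), ubiquitin ligase Rabs (41.1 ± 2.15 in shLIS1 and 53.0 ± 4.29 in control cells) or the less studied RAB39B, RAB42 and RAB44 (1.95 ± 0.423 in shLIS1 and 3.00 ± 0.244 in control cells). They overlapped for late endosome and lysosome Rabs, at 506 ± 16.4 CPM in shLIS1 and 509 ± 6.87 CPM in control cells, and for ciliary Rabs, at 29.5 ± 2.35 CPM in shLIS1 and 30.2 ± 0.800 CPM in control cells. Role sums were taken without the offset and weigh abundant members most, so they do not show a change shared by a role. In the ER and Golgi role 10 of the 14 tested members were not called without the offset. No share over sums of other genes was computed.

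The balance between paralogs was compared as the log2 ratio of their counts within a library, which does not depend on the scaling of library sizes. Of 18 pairs with at least 10 counts on average in each gene, 11 had ratios that did not overlap between groups. Levels of single genes did not overlap in 56.1% of all tested genes, and the share over pairs of other genes was not computed. With 3 libraries against 3 the smallest two-sided p an exact permutation test can give is 0.1, which those 11 pairs reached, with a Benjamini-Hochberg value of 0.164 over the 18 pairs, so none could pass 0.05. The largest positive shift was in RAB1A over RAB1B, with count ratios of 1.36, 1.41 and 1.41 in shLIS1 libraries 1 to 3 and 0.827, 0.899 and 0.887 in control libraries 1 to 3. RAB1B was thus the more counted paralog in every control library and RAB1A in every shLIS1 library, a difference of 0.68 in mean log2 ratio that was 0.15 with the offset.

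RAB27A over RAB27B had count ratios of 0.907, 0.854 and 1.07 in shLIS1 libraries and 1.56, 1.42 and 1.27 in control libraries, a difference of -0.58 in mean log2 ratio and -0.37 with the offset. RAB5A over RAB5B had count ratios of 0.402, 0.379 and 0.350 in shLIS1 libraries and 0.268, 0.305 and 0.274 in control libraries, with differences of 0.42 without and 0.43 with the offset. The largest shift in size was that of the weakly expressed RAB3A over RAB3B, -0.72, of which -0.11 was left with the offset. RAB40B over RAB40C shifted by -0.40 and by -0.66 with the offset. RAB8A over RAB8B shifted by -0.45 and RAB11A over RAB25 by 0.43, and both shifts changed sign with the offset, to 0.063 and -0.18. RAB2A over RAB2B, RAB22A over RAB31 and RAB5B over RAB5C overlapped between groups, with differences of 0.09, 0.03 and 0.06.

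**Figure D4:**
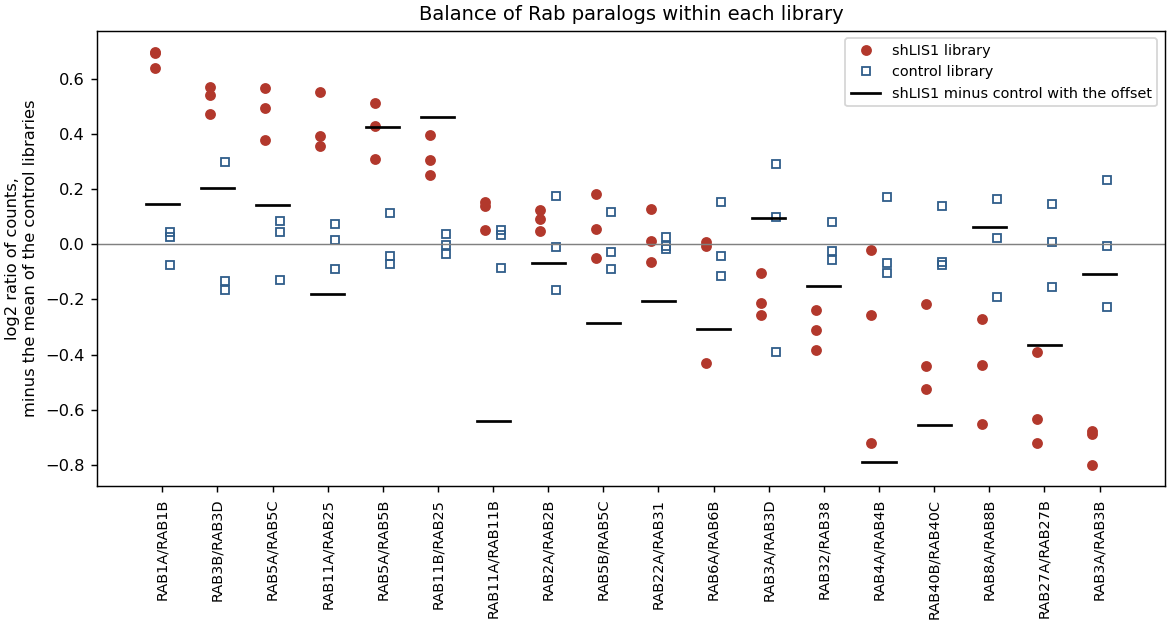
Log2 ratio of the counts of 2 Rab paralogs within a library, minus the mean of the control libraries, for 18 pairs; filled circles are shLIS1 libraries, open squares control libraries, and the black bar is the shLIS1 minus control difference with the length and GC offset. RAB1A over RAB1B stands 0.68 above control without the offset and 0.15 with it, while RAB5A over RAB5B is nearly the same, at 0.42 and 0.43.

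Genes that act on Rab proteins were taken from 4 lists of 135 genes in the table. Of 128 tested 37 rose and 30 fell, which is 28.9% and 23.4%, where 23.5% and 24.9% of all genes rose and fell, and with the offset 23 rose and 22 fell, which is 18.0% and 17.2%, where 17.7% and 24.0% of all genes rose and fell. Without the offset, falls numbered 19 without shLIS1 library 3. The median log2 fold change was 0.03 for these genes, against -0.16 for the Rab genes. That difference was not tested.

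Of 7 genes for lipid attachment and membrane recycling of Rabs 3 rose, 2 fell and 2 were not called. Rises were 42.86% and falls 28.57%, where 23.5% and 24.9% of all tested genes rose and fell. RABGGTB, the catalytic subunit of Rab geranylgeranyl transferase, had 118, 117 and 119 CPM in shLIS1 libraries 1 to 3, against 56.8, 70.7 and 65.8 CPM in control libraries 1 to 3 (log2 fold change 0.87, adjusted p = 2.9e-09 by edgeR, SE 0.07, and 0.71 with the offset). The escort proteins CHM and CHML, which present newly made Rabs to that enzyme, rose by 0.72 and 0.85 on the log2 scale, with 0.30 and 0.36 left under the offset. RABGGTA, the partner subunit of the enzyme, averaged 20.7 ± 1.20 CPM in shLIS1 and 20.7 ± 1.16 CPM in control cells (SD, n = 3 each), was not called without the offset and was called higher with it (log2 fold change 0.30). GDI2, a GDP dissociation inhibitor that extracts Rabs from membranes, fell by 0.20 on the log2 scale and by 0.27 with the offset. RABAC1, a membrane protein that binds prenylated Rabs, fell to 49.98% of control in the edgeR fit. It had 1.30, 0.792 and 0.650 CPM in shLIS1 libraries and 1.86, 1.69 and 1.96 CPM in control libraries. Its log2 fold change with the offset was -0.74, without a call.

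Of 40 tested exchange factors, which load Rabs with GTP, 11 rose and 7 fell, or 27.5% and 17.5%. Over all tested genes 23.5% rose and 24.9% fell. DENND4A (0.86, and 0.40 with the offset), DENND4C (0.70 and 0.43) and RIC1 (0.53 and 0.26), an exchange factor for RAB6, rose. SBF1 (-0.32, and -0.13 with the offset), CCZ1B (-0.40 and -0.43), part of the exchange factor for RAB7, and DENND2B (-0.32 and -0.18) fell, and all 6 kept their call with the offset. CCZ1B has a near-identical copy, CCZ1, and DENND4A overlaps RAB11A on the other strand over 66240 bases, so counts of these genes are uncertain. Of 34 tested GTPase-activating proteins, which switch Rabs off, 10 rose and 11 fell. Their shares were 29.41% and 32.35%, where 23.5% and 24.9% of all tested genes rose and fell. TBC1D8B (1.04, and 0.63 with the offset), RAB3GAP2 (0.63 and 0.24) and TBC1D15 (0.55 and 0.09), which acts on RAB7, were the rises with the smallest p, and TBC1D15 was not called with the offset. TBC1D10A (-0.70, and -0.36 with the offset), GRTP1 (-0.58 and -0.25) and SGSM2 (-0.43 and -0.22) were the falls with the smallest p.

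Of 47 tested effectors 13 rose and 10 fell, or 27.66% and 21.28%, near the 23.5% and 24.9% of all tested genes. GCC2, a golgin that binds Rabs at the trans-Golgi, had 46.6, 50.0 and 49.2 CPM in shLIS1 libraries 1 to 3, against 19.3, 22.9 and 17.3 CPM in control libraries 1 to 3 (log2 fold change 1.29, adjusted p = 5.1e-10 by edgeR, SE 0.09, and 0.86 with the offset). EEA1, the tether through which RAB5 brings early endosomes together, had 44.8, 49.3 and 43.3 CPM in shLIS1 libraries and 19.3, 22.1 and 21.3 CPM in control libraries (log2 fold change 1.13, adjusted p = 8.5e-10 by edgeR, SE 0.08, and 0.57 with the offset). TMF1 (0.83, and 0.35 with the offset), a Golgi effector of RAB6, rose. PLIN3 (-0.48, and -0.24 with the offset), a lipid droplet protein that binds RAB9, EHBP1L1 (-0.36 and -0.13), an effector of RAB8, and SYTL1 (-0.52 and -0.18), an effector of RAB27, fell, and SYTL1 was not called with the offset.

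A subset of 8 effectors that link Rabs to dynein was chosen after the values were seen. Of these HOOK1 (0.63) and HOOK3 (0.32) rose, RILP (-0.52) and BICD2 (-0.14) fell, and BICD1, BICDL1, RAB11FIP3 and OSBPL1A were not called. Thus 2 of the 8 rose and 2 fell, near the background, where 23.5% and 24.9% of all tested genes rose and fell. With the offset HOOK1 was the one rise (0.19), BICD1 (-0.34) and OSBPL1A (-0.24) were lower, and HOOK3 (-0.19), RILP (-0.14) and BICD2 (-0.09) were not called. Thus 1 of the 8 was higher and 2 were lower with it, where 17.7% and 24.0% of all genes were.

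**Figure D5:**
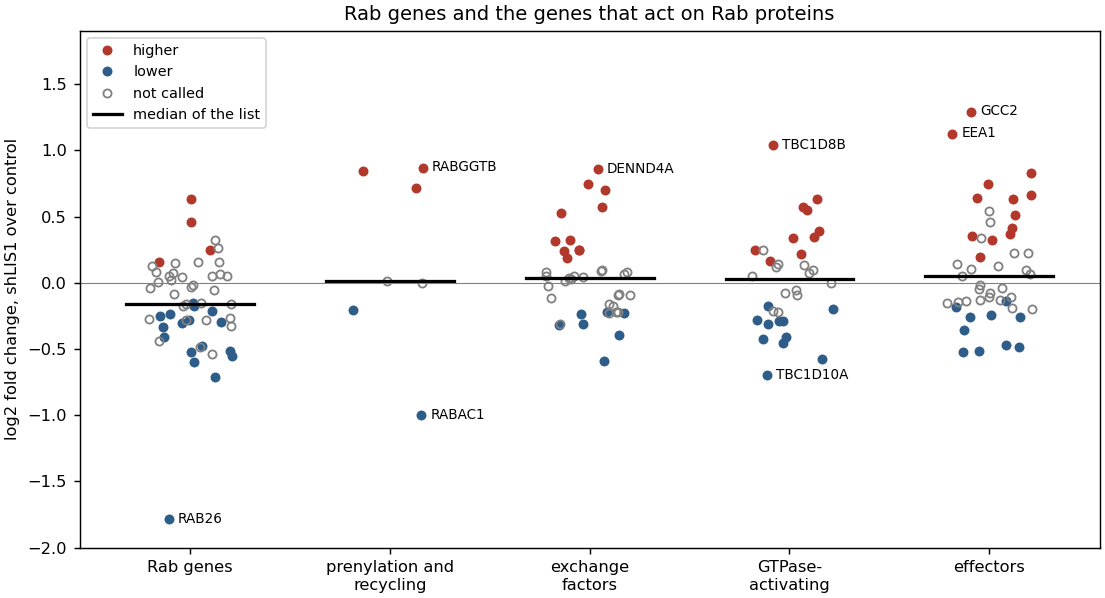
Log2 fold change (shLIS1 over control, without the offset) of the 53 tested Rab genes and of 128 tested genes that act on Rab proteins, in 4 lists; points are genes coloured by call, spread sideways at random, and black bars are list medians. The median is -0.16 for Rab genes and between 0.01 and 0.05 for the 4 lists, with RAB26 lowest at -1.79 and GCC2 highest at 1.29.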

How the data were processed

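The authors deposited 1 table of read counts, which are unnormalized whole numbers, with a column for each of the 6 SCC25 libraries. Per the submitters' processing notes the build was hg38, and per the labels' protocols libraries were strand-marked with dUTP. The aligner, counter, annotation and strand setting were not given in the sources used here. Of the 61 Rab genes 31 overlap another gene of the table, 28 of them on the opposite strand. Tests used edgeR 4.0.16 under R 4.3.3 (filterByExpr with minimum count 10 and minimum total 15, TMM, glmQLFit with robust=TRUE, glmQLFTest, group alone), with Benjamini-Hochberg adjustment over 14964 genes and a threshold of 0.05. Each SE is the size of the log2 fold change divided by the root of its F statistic. The filter and calls were tested on simulated data. For the offset, each library's deviation from the mean was smoothed with mgcv 1.9.3 (basis size 6 per axis) over log2 length and GC content of the longest transcript in GENCODE release 29, which gave a value for all 61 Rab genes and 96.8% of tested genes. The alternatives tried were upper quartile or RLE scaling, keeping all genes, a floor of 1 CPM in 3 libraries, limma-voom 3.58.1, DESeq2 1.42.0, a fit without robust estimation, a block for the replicate number, with and without the offset, leaving out each library, and, for paralog ratios (scipy 1.17.1, 0.5 counts added), 5 counts added. Promoters came from RefSeq (GRCh38.p14), taking the entry nearest the deposited gene start for Rab genes and the first entry for every other gene. The genes named were PAFAH1B1, every called Rab gene, with library values for the 12 of smallest p, the 12 largest called changes at 1 CPM or more and the 5 highest levels per kilobase, and up to 3 rises and 3 falls of smallest p per list. Others were chosen after their values were seen. Members, roles and lists were chosen with earlier results of these data known. Of the lists, 1 gene is not reported here and is not in their counts.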

Additional observations from a re-analysis of the deposited data

How the results depend on the processing

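Of the 21 called Rab genes 9 kept their call and direction under every alternative run: RAB1B, RAB4A, RAB12, RAB25, RAB26, RAB32, RAB34, RAB38 and RAB40B. Under other scalings, filters and tests without the offset, 3 to 4 Rab genes rose and 16 to 19 fell. With the length and GC offset 1 rose and 26 fell, and with that offset and the replicate block together 1 rose and 23 fell. Among genes that act on Rabs the offset gave 23 rises and, with the block, 20 rises and 17 falls. Leaving out 1 library gave 19 to 30 falls among them, the lowest without shLIS1 library 3, and 14 to 19 falls among Rab genes. The offset alone changed the sign of 15 of 53 Rab genes. Of the Rab genes tried under every alternative, 3 changed sign both with the offset alone and with the block added. They were RAB1A (-0.048 in both), RAB10 (-0.17 in both) and RAB11B (0.21 in both). The offset changed the sign of 7 of 18 paralog ratios, among them RAB8A/RAB8B (0.063), RAB11A/RAB11B (-0.64) and RAB11A/RAB25 (-0.18). With 5 added counts or a library left out, the 11 ratios whose groups did not overlap kept their sign and moved by less than 1.5 times. The other 7 moved by more, and without shLIS1 library 3 RAB6A/RAB6B (0.0014) and RAB22A/RAB31 (-0.027) changed sign. The cause was not tested. Same-numbered libraries did not deviate together (correlations of -0.038, 0.032 and -0.037), and with the replicate block 4 Rab genes rose and 16 fell, RAB11B losing its call; RAB8A lost its call with block and offset together (edgeR adjusted p = 0.0532). A count of 0 allows up to 3 counts, 0.130 to 0.192 CPM, which covers counting error only.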
